A study of Mus musculus with 22 samples.

Results

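The comparison described here set livers of mice given DTMB against livers of mice given vehicle, all fed a methionine- and choline-deficient (MCD) diet. It used 7 of the 22 libraries of the series, 3 with DTMB and 4 with vehicle, and every gene in the count table of that cohort. All mice were labelled male, wild type and C57BL/6J, and the MCD-fed groups were labelled with metabolic dysfunction-associated steatohepatitis (MASH) as disease state. DTMB is a code name, and nothing more is said of the compound in the labels than an oral dose of 10 mg/kg/day. The vehicle groups received vehicle only. Another group of the same cohort, 4 vehicle-treated mice on normal diet, entered the fit so that the spread was estimated over 11 libraries. The replicates are labelled as biological replicates. Ages, the length of feeding and the number of days on the compound were not stated in the sources used here.

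Methionine and choline are both needed to make phosphatidylcholine, the main phospholipid of the particles in which the liver exports triglyceride. When both are missing, hepatocytes store fat in lipid droplets, macrophages gather, and stellate cells, the liver's main collagen producers, are activated. The diet is used as a model of steatohepatitis for these features. The animals lose weight on it, so it does not model obesity or insulin resistance.

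Counts per library were 62.3 to 66.7 M in the vehicle group and 50.1 to 64.1 M in the DTMB group. The liver label was checked with 14 defining hepatocyte genes, such as Alb (albumin) and Apoa1 (the main apolipoprotein of HDL), and no member was at 0 in any of the 7 libraries. Their summed level was 98975 to 140030 CPM (counts scaled to library size with TMM factors) with vehicle and 114130 to 128130 CPM with DTMB. Pancreatic acinar genes, a sign of neighbouring tissue in a liver sample, summed to 6.09 to 20.7 CPM with vehicle and 7.43 to 10.9 CPM with DTMB. Erythrocyte genes summed to 146 to 344 and 138 to 184 CPM.

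One vehicle library stood apart from the rest. In a principal component analysis of the 7 libraries, component 1 held 40.3% of the variance, and vehicle replicate 2 scored 47 on it against -26.2 to 9 in the other libraries. Component 2 held 21.3%, and vehicle replicate 4 scored 36.9 on it against -19.6 to 0.4. The DTMB libraries lay among the vehicle libraries on component 2, while on component 1 DTMB replicate 3, at -26.2, lay below all 6 others. Across genes, which are not independent replicates, log2 CPM correlated at 0.978 to 0.990 among vehicle libraries, at 0.990 to 0.993 among DTMB libraries and at 0.974 to 0.993 between the groups. In vehicle replicate 2 the immediate-early genes, which respond within minutes to stress or handling, summed to 652 CPM against 218 to 293 CPM in the other vehicle livers. Its p53 and apoptosis genes summed to 550 CPM against 247 to 258 CPM. For this reason list medians are given below with and without that library.

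**Figure D1:**
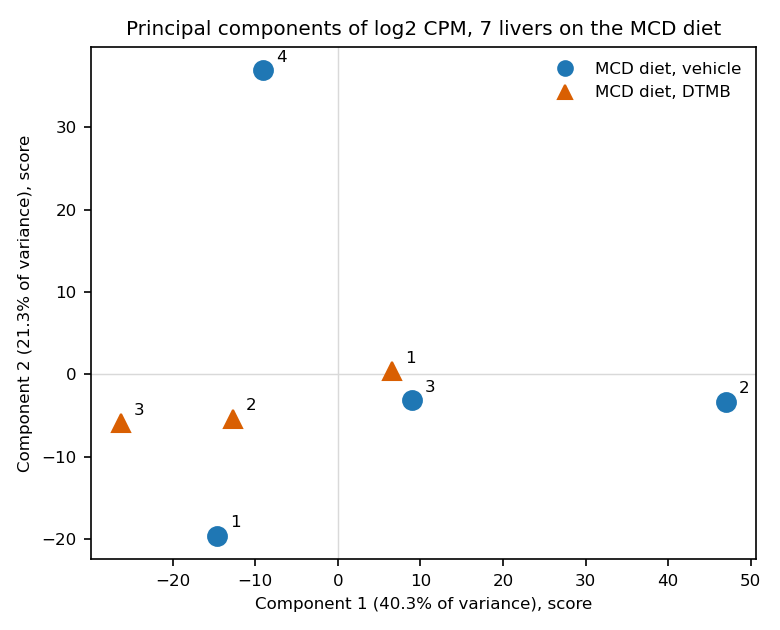
Scores of the 7 MCD-diet libraries on principal components 1 (x) and 2 (y) of log2 CPM, circles for vehicle and triangles for DTMB, numbered by replicate. Vehicle replicate 2 lies at 47 on component 1 and vehicle replicate 4 at 36.9 on component 2, while DTMB replicate 3, at -26.2, is the lowest on component 1 and the 3 DTMB libraries lie among the vehicle libraries on component 2.

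With DTMB, 1 of 16037 genes tested passed the threshold on the MCD diet (0.00624%; edgeR's quasi-likelihood test, Benjamini-Hochberg adjusted p under 0.05). It was LOC108168464, which rose. The next smallest adjusted p in that test was 0.744. At an unadjusted p under 0.05, 322 genes were higher (2.01%) and 535 lower (3.34%). The 3 DTMB libraries all lay above the 4 vehicle libraries for 416 genes (2.59%) and all below for 524 (3.27%). Without vehicle replicate 2 the unadjusted counts became 316 higher and 295 lower. The split also turned on the scaling: with library size alone in place of TMM factors, 85 were higher and 830 lower at an unadjusted p under 0.05, and the median log2 fold change of all genes was -0.082 in place of 0.017. For contrast, the same vehicle libraries against normal diet gave 6626 genes (41.3%) in the same fit.

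The spread between livers sets what could be seen. The median standard error (SE) of a log2 fold change was 0.20, and for 11143 genes (69.5%) the 95% interval lay within 1 log2 unit on either side of 0. Among the 7346 genes with a mean of at least 10 CPM, 6930 (94.3%) had such an interval, with a median SE of 0.14. So for most well expressed genes a doubling fell outside the interval, while smaller differences often could not be told from the spread. DESeq2 called 13 genes, 8 higher and 5 lower, and limma-voom with quality weights called 0, while 2013 genes had an unadjusted p under 0.05 in it.

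**Figure D2:**
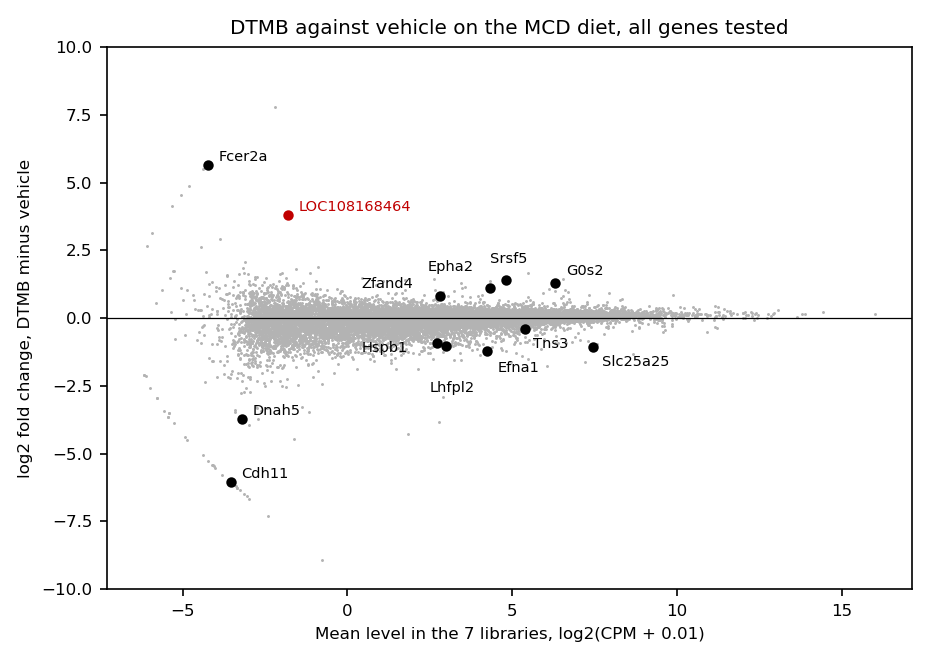
Fitted log2 fold change of DTMB against vehicle (y) by mean level in the 7 libraries (x, log2 of CPM plus 0.01), 1 point per gene tested. LOC108168464 (red) passed the threshold, the 12 named genes of smallest p (black) did not, and the arcs of points at low levels are genes with no count in one of the groups, whose fitted values are not bounds.

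The gene that passed is a short, weakly expressed pseudogene. LOC108168464 (gene ID 108168464, Gm14686 in RefSeq) lies at chrX:74260895-74261549 in GRCm38.p6, inside the span of Emd, which encodes the nuclear envelope protein emerin. Its raw counts were 4, 4, 2 and 2 in the vehicle livers and 23, 58 and 30 in the DTMB livers, and 2, 3, 3 and 3 on normal diet. All 3 DTMB livers lay above all 8 others. Its log2 fold change was 3.79 ± 0.45 (SE; 95% interval 2.81 to 4.78; adjusted p 0.0369 in edgeR's quasi-likelihood test). Emd itself was at 14.6, 14.9, 14 and 15.2 CPM with vehicle and 14.1, 13.8 and 13.6 CPM with DTMB. In the high-fat diet (HFD) cohort of the same series the pseudogene's counts were 12, 55 and 4 on normal diet, 3, 3, 7 and 1 on HFD with vehicle and 3, 12, 12 and 6 on HFD with DTMB. A count of 55 was thus reached in 1 liver that had neither diet nor compound. Leaving out any 1 of the 11 libraries ended the call. It held in 3 of 19 other settings, with adjusted p from 0.000247 to 0.85 and log2 fold changes of 3.44 to 4.03. The sources used here do not say how reads of near-identical or overlapping genes were counted, so its level is uncertain.

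The 12 named genes of smallest p missed the threshold in the same test, and their values are given as a description. Among them was Srsf5 (gene ID 20384, chr12:80945495-80950507), a splicing factor of the SR family, at 19.7, 15.6, 17.9 and 13.1 CPM with vehicle and 46.5, 33.9 and 50.9 CPM with DTMB. The groups did not overlap, and the log2 difference was 1.4 ± 0.25 (SE; 95% interval 0.85 to 1.95). On normal diet it stood at 51.2, 80.9, 106 and 50.8 CPM, so every DTMB liver lay above the vehicle livers, and only DTMB replicate 3 reached the lowest normal-diet liver.

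G0s2 (gene ID 14373, chr1:193272160-193273188), which inhibits adipose triglyceride lipase and so slows the breakdown of lipid droplets, was at 59, 49.5, 25.5 and 62.5 CPM with vehicle and 104, 121 and 134 CPM with DTMB. Every DTMB liver was above every vehicle liver, and the log2 difference was 1.28 ± 0.26 (0.71 to 1.86). The normal-diet livers were lower still, at 12.9, 15.2, 22.5 and 16.1 CPM.

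Slc25a25 (gene ID 227731, chr2:32414487-32451470), a mitochondrial carrier that exchanges ATP-magnesium for phosphate, was at 235, 228, 235 and 216 CPM with vehicle and 113, 78 and 132 CPM with DTMB. The vehicle livers were within a narrow range and the DTMB livers all lay far below it, a log2 difference of -1.08 ± 0.22 (-1.56 to -0.61). Its span overlaps Naif1, which was at 1.93, 2.46, 2.32 and 2.32 CPM with vehicle and 1.81, 2.41 and 2.33 CPM with DTMB.

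A receptor and a ligand of the same signalling system stood on opposite sides. Epha2 (gene ID 13836, chr4:141301221-141329384), a receptor tyrosine kinase of the Eph family, was at 8.38, 14.7, 14.5 and 15.6 CPM with vehicle and 29.3, 35.8 and 21.2 CPM with DTMB, a log2 difference of 1.11 ± 0.23 (0.60 to 1.62). Efna1 (gene ID 13636, chr3:89271730-89280951), a membrane-bound ligand that binds this receptor, was at 21.1, 28.4, 22.3 and 27.5 CPM with vehicle and 11.6, 10.9 and 9.66 CPM with DTMB, a log2 difference of -1.21 ± 0.28 (-1.81 to -0.61). Neither gene's groups overlapped.

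The others were 4 genes with a level of several CPM or more and 3 that were barely detected. Tns3, a focal adhesion protein, was at 48, 48.6, 46.6 and 42.8 CPM with vehicle and 35.6, 34.1 and 35.3 CPM with DTMB, a log2 difference of -0.41 ± 0.090, the smallest difference of the 12 with the smallest SE. Hspb1, a small heat shock protein, was at 8.6, 8.07, 7.12 and 9.24 CPM with vehicle and 3.21, 4.58 and 5.2 CPM with DTMB. Lhfpl2, a membrane protein whose span overlaps LOC115488151, was at 9.1, 13.7, 11 and 7.18 CPM with vehicle and 5.56, 5.56 and 3.98 CPM with DTMB, and Zfand4 was at 5.78, 5.8, 6.06 and 3.74 CPM with vehicle and 8.89, 9.44 and 9.74 CPM with DTMB. In each of the 4 the libraries of the groups did not overlap.

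The 3 barely detected genes were read from raw counts. Fcer2a, the low-affinity IgE receptor of B cells, which overlaps Trappc5, had counts of 0 in all 4 vehicle livers and 8, 5 and 5 in the DTMB livers, at least 9.90-fold higher when the vehicle group as a whole is set to 3 counts. Cdh11, a cadherin of mesenchymal cells, had 8, 10, 13 and 8 counts with vehicle and 0 in all 3 DTMB livers, at least 8.08-fold lower. Dnah5, a dynein of motile cilia, had 10, 18, 12 and 9 counts with vehicle and 0, 2 and 0 with DTMB, a ratio of 15.3 (95% interval 4.01 to 130). These bounds and intervals cover counting error only, not the spread between livers.

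Promoters from 250 bases before to 50 after the start site were available from RefSeq (GRCm38.p6) for 11 of these 12 genes, 17 promoters in all. They were searched on both strands for 9 motifs. TGACNNNGC, the antioxidant response element core, was found in Slc25a25 and Zfand4 (12.4% of all promoters). TATAAA was found in Fcer2a and Zfand4 (13.6%), and the STAT motif TTCNNNGAA in Dnah5 (8.3%). Apart from these and the next, no motif matched. The matches were not tested against these shares. The cAMP response element TGACGTCA, an 8-base palindrome, was found in the promoter of Epha2 and in 1 of the 3 promoters of Slc25a25, the first higher and the second lower with DTMB. It occurs in 1.79% of the 32851 promoters of that table. Both are shown because they carry the same letters beside differences of opposite sign. The capitals mark the element.
Epha2, chr4:141300971-141301270, plus strand: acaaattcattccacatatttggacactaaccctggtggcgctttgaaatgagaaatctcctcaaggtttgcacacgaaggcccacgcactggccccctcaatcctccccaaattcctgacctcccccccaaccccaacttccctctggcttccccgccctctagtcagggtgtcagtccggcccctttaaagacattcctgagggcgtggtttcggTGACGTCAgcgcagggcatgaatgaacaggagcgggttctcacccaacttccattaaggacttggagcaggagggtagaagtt
Slc25a25, chr2:32424017-32424316, minus strand: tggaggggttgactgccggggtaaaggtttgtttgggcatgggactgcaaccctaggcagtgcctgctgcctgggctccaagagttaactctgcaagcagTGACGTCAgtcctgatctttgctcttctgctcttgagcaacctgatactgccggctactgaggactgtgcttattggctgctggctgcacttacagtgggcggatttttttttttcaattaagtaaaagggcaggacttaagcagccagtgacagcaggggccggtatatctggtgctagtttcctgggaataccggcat
The element begins 33 bases before the start site of Epha2 and 150 bases before that of Slc25a25. The match describes these letters only, and binding was not measured.

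**Figure D3:**
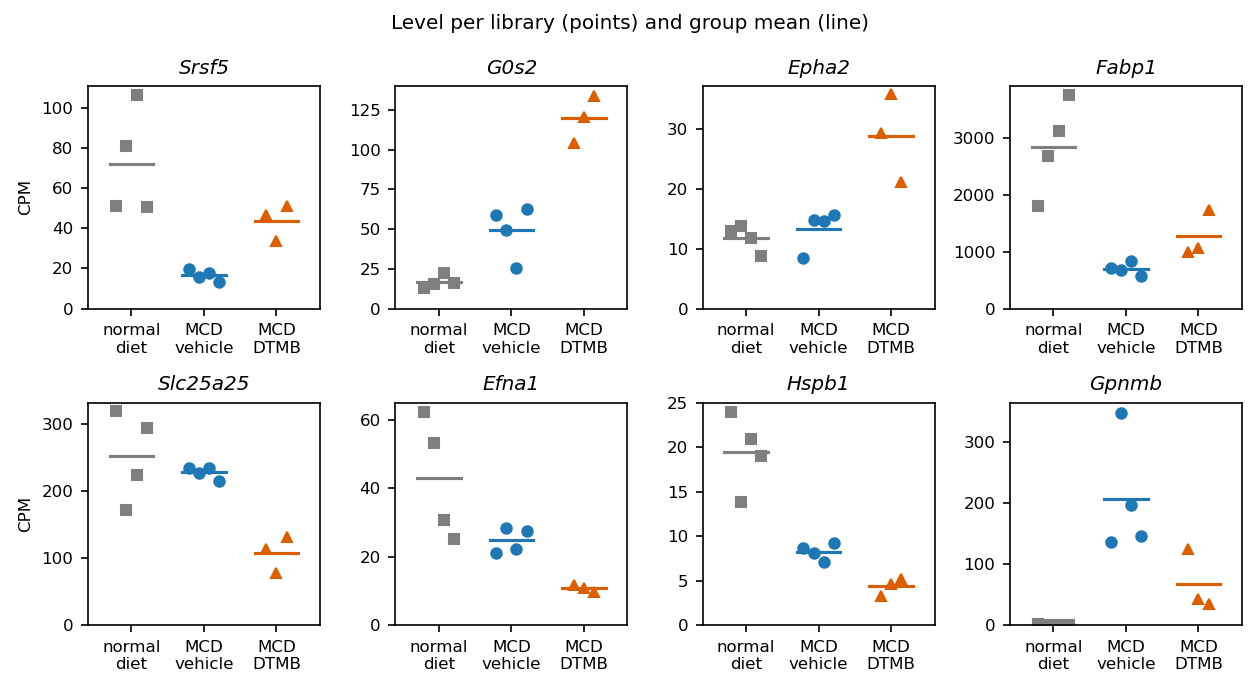
CPM per library (points, y) and group mean (line) for 8 genes in normal-diet, MCD vehicle and MCD DTMB livers, each panel from 0. Srsf5, G0s2, Epha2 and Fabp1 are higher and Slc25a25, Efna1 and Hspb1 lower in every DTMB liver than in any MCD vehicle liver, while Gpnmb also has no overlap but a wide spread.

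DESeq2 called 9 of these 12 genes (all but Cdh11, Dnah5 and Zfand4), LOC108168464 and 3 more. The 3 were Arrdc3, an arrestin-domain regulator of membrane receptors, at 26.6, 17.3, 23.2 and 24.2 CPM with vehicle and 55.7, 110.4 and 52.5 CPM with DTMB; Trhde, a thyrotropin-releasing hormone degrading enzyme, with counts of 0 in all vehicle livers and 5, 12 and 0 with DTMB; and the predicted gene LOC102640673. The largest adjusted p among its 13 calls was 0.0495.

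The gene lists that follow are described by their counts and medians beside those of all genes tested, whose median log2 fold change was 0.017 with 8535 of 16037 values above 0. Among 1186 genes held by the 56 lists and tested, edgeR called 0, and DESeq2 called G0s2 and Hspb1. At an unadjusted p under 0.05 in edgeR, 34 were higher and 64 lower, against 2.01% and 3.34% of all genes. Genes named in the list paragraphs were the member of smallest p in their list, or were chosen for their role after their values had been seen. None of them passed the threshold.

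Lipid metabolism is the process the MCD diet disturbs most directly. Fatty acid oxidation genes were above 0 in 43 of 46 tested, with a median log2 difference of 0.18 (0.18 without vehicle replicate 2). At an unadjusted p under 0.05, 1 member was higher and 0 lower, against 2.01% and 3.34% of all genes. The groups did not overlap for 4 members, all higher, against 2.59% of all genes. The member of smallest p was Acot4, a peroxisomal thioesterase, at 74.4, 67.1, 51 and 59.3 CPM with vehicle and 64.6, 112 and 104 CPM with DTMB (0.57 ± 0.21). The core genes differed less. Cpt1a, the gatekeeper of mitochondrial fatty acid entry, was at 791, 666, 605 and 471 CPM with vehicle and 676, 712 and 578 CPM with DTMB, a log2 difference of 0.049 ± 0.17 with an interval of -0.31 to 0.41. For Ppara, the nuclear receptor that drives this programme, the log2 difference was 0.14 ± 0.15 (-0.18 to 0.46). Cyp4a14, a microsomal omega-hydroxylase and PPAR-alpha target, was at 108 to 346 CPM on normal diet, 3177, 2099.7, 2024 and 3482 CPM with vehicle and 2376, 3665 and 3601 CPM with DTMB, so the diet's difference was present in both MCD groups.

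Pdk4 shows what 1 library can do. This kinase, which shuts off glucose oxidation in fasting, was at 27.6, 309.8, 17.9 and 25.8 CPM with vehicle and 41.8, 29.3 and 11.8 CPM with DTMB. The log2 difference was -1.79 ± 0.98, and 0.22 without vehicle replicate 2.

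Storage and handling of fat gave similar small shifts. In the lipid droplet and lipolysis list 19 of 22 genes were above 0 (median 0.18, 0.20 without vehicle replicate 2), and G0s2 led it. Plin2, the main coat protein of lipid droplets in hepatocytes, was at 243, 321, 355 and 300.3 CPM on normal diet, 1234, 1256, 982 and 748 CPM with MCD vehicle and 1423, 1247 and 1448 CPM with DTMB, a log2 difference of 0.38 ± 0.18 (-0.024 to 0.78). Every MCD liver was far above the normal-diet livers, and DTMB replicate 2 lay just within the vehicle range. Cidec, which fuses droplets, was at 0.444 to 2.44 CPM on normal diet, 102, 129, 73.9 and 26.6 CPM with vehicle and 81.3, 70.3 and 65.6 CPM with DTMB. Pnpla2, the lipase that G0s2 inhibits, was at 236, 217, 121 and 154 CPM with vehicle and 185, 186 and 182 CPM with DTMB, a log2 difference of 0.017 ± 0.20. Both Cidec and Pnpla2 overlapped fully between the groups.

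Genes of fatty acid uptake and binding were above 0 in 13 of 18 (median 0.096, 0.12 without vehicle replicate 2 and 0.0059 with library size alone). Of them 3 lay higher and 2 lower without overlap, against 2.59% and 3.27% of all genes. Fabp1, the liver fatty acid binding protein, was at 1798, 2689, 3129.8 and 3757 CPM on normal diet, 712, 674, 834 and 574 CPM with vehicle and 1002, 1072 and 1734 CPM with DTMB, with no overlap between the MCD groups and a log2 difference of 0.86 ± 0.25 (0.31 to 1.41). The macrophage and adipocyte forms lay the other way. Fabp4 was at 12.5, 23, 15.9 and 14.3 CPM with vehicle and 9.35, 7.02 and 10.2 CPM with DTMB (-0.89 ± 0.24), and Fabp5 at 23.1, 39.4, 23.7 and 20.6 CPM with vehicle and 16.2, 12 and 10.3 CPM with DTMB (-1.06 ± 0.39), both without overlap. For the uptake receptor Cd36 the values were 405, 528, 441 and 516 CPM with vehicle and 495, 403 and 539 CPM with DTMB, against 37.4 to 41.8 CPM on normal diet. Its log2 difference with DTMB was 0.019 ± 0.13, with an interval of -0.26 to 0.30.

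Lipogenic genes were mixed. Of 23 tested, 16 were above 0 and 7 below (median 0.15, 0.10 without vehicle replicate 2, -0.011 with limma-voom), with 3 higher and 1 lower at an unadjusted p under 0.05, against 2.01% and 3.34% of all genes. Scd1, the desaturase that makes monounsaturated fatty acids, was at 13568, 10024, 9513 and 6640.2 CPM on normal diet, 154, 136, 119.7 and 49.4 CPM with vehicle and 31.1, 67.2 and 227 CPM with DTMB. Its level was low in all 7 MCD livers, and its log2 difference with DTMB was -0.080 ± 0.55. The delta-6 desaturase gene Fads2 was at 1769, 2024, 2172 and 1867 CPM with vehicle and 2752, 2637 and 2612 CPM with DTMB (0.45 ± 0.13, 0.16 to 0.73), and the delta-5 desaturase gene Fads1 at 861, 927, 942 and 1077 CPM with vehicle and 1286, 1138 and 1351 CPM with DTMB (0.40 ± 0.15). Both were without overlap. Srebf1 and Fasn overlapped between the groups. For Srebf1, the transcription factor over this pathway, the values were 79.2, 38.5, 94.9 and 101 CPM with vehicle and 109, 84.5 and 151 CPM with DTMB (0.55 ± 0.28), and for Fasn 93.2, 82.3, 299.7 and 139.7 CPM with vehicle and 118, 206 and 247 CPM with DTMB (0.31 ± 0.40).

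Cholesterol synthesis genes were above 0 in 24 of 25 (median 0.20; 0.15 without vehicle replicate 2, when 6 of 25 were below 0). Sc5d, a late enzyme of the pathway, was at 286, 243, 294 and 308 CPM with vehicle and 319.8, 376 and 384 CPM with DTMB (0.35 ± 0.13), against 590.1 to 774 CPM on normal diet. Every MCD liver was below the normal-diet livers for it. Cyp7a1, the rate-limiting enzyme of bile acid synthesis, was at 241, 119.6, 216 and 73.4 CPM with vehicle and 106, 207 and 182 CPM with DTMB, with full overlap.

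Genes of the pathway the diet starves were close to 0. The one-carbon and phosphatidylcholine list had 21 of 35 values above 0 (median 0.034, -0.035 without vehicle replicate 2 and -0.054 with library size alone). Pemt, which makes phosphatidylcholine by methylation, was at 222, 211, 225 and 304 CPM with vehicle and 259.8, 305 and 299 CPM with DTMB (0.26 ± 0.13). Mat1a, which makes the methyl donor S-adenosylmethionine, had a log2 difference of 0.0029 ± 0.20 (-0.42 to 0.43). Gnmt, a methyltransferase that consumes it, was at 1683 to 2182 CPM on normal diet, 917, 705, 798 and 1331 CPM with vehicle and 919, 898 and 856 CPM with DTMB (-0.074 ± 0.19).

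Macrophage genes had the lowest median of the lists in the plot of list medians. All 25 markers of monocytes and lipid-associated macrophages had a value below 0, with a median log2 difference of -0.81. Of them 6 were lower at an unadjusted p under 0.05, against 3.34% of all genes. Another count, of members lower without overlap between the groups, was 3, against 3.27% of all genes. Without vehicle replicate 2 the median was -0.46, with 24 of 25 below 0. Over all settings run it ranged from -1.18 to -0.46. The list's median deviation from the vehicle mean, in log2(CPM + 0.5), was -0.32, 0.71, -0.031 and -0.33 in the vehicle livers and -0.11, -0.87 and -1.11 in the DTMB livers. DTMB replicate 1 thus lay within the vehicle range and the other 2 DTMB livers below it. In whole liver RNA, fewer cells of a type and less RNA per cell cannot be told apart.

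Single members show the same spread. Gpnmb, a glycoprotein of lipid-laden macrophages, was at 0.851, 0.293, 0 and 0.065 CPM on normal diet, 136, 347, 197 and 146 CPM with vehicle and 124, 43 and 34 CPM with DTMB (-1.62 ± 0.61, -2.95 to -0.30). Ctsk, a lysosomal collagen-degrading protease, was at 2.69, 5.14, 2.88 and 3.41 CPM with vehicle and 1.77, 1.02 and 0.587 CPM with DTMB (-1.65 ± 0.42, -2.57 to -0.72). Neither gene's groups overlapped. Trem2, the lipid-sensing receptor of these cells, was at 8.18, 18.5, 9.95 and 8.32 CPM with vehicle and 8.72, 4.54 and 4.63 CPM with DTMB (-0.92 ± 0.44), so DTMB replicate 1 fell among the vehicle livers. Spp1 (osteopontin), shared by macrophages and bile duct cells, was at 59.3, 144, 59.2 and 41.6 CPM with vehicle and 42, 33.6 and 28.9 CPM with DTMB, a log2 difference of -1.13 ± 0.35 and of -0.62 without vehicle replicate 2. Gpnmb, Ctsk and Trem2 were higher in every DTMB liver than in any normal-diet liver, while Spp1, at 34.1, 31.5, 45.8 and 39.9 CPM on normal diet, was not.

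Resident macrophage genes did not share this pattern of values. The Kupffer cell list had 9 members above 0 and 9 below (median -0.018, 0.16 without vehicle replicate 2). Clec4f, a lectin specific to Kupffer cells, was at 24.1, 69.2, 63.9 and 42.8 CPM with vehicle and 62.1, 62 and 59.7 CPM with DTMB. Timd4, which marks long-lived Kupffer cells, was at 1.3, 2.38, 2.43 and 1.7 CPM with vehicle and 3.81, 2.91 and 3.19 CPM with DTMB (0.76 ± 0.46), without overlap. Adgre1 (F4/80) was at 9.45, 35, 24.5 and 17.9 CPM with vehicle and 20.3, 14.1 and 12.8 CPM with DTMB, and Lyz2, a lysozyme of all myeloid cells, at 125, 304, 197 and 151 CPM with vehicle and 164, 82.6 and 79.6 CPM with DTMB (-0.84 ± 0.44).

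Inflammatory mediators were measured at low levels. Chemokines and their receptors were below 0 in 20 of 28 (median -0.39, -0.13 without vehicle replicate 2). Ccl2, the monocyte attractant, was at 1.48, 2.83, 3.35 and 2.29 CPM with vehicle and 4.1, 1.93 and 2.08 CPM with DTMB, with overlap. Cxcr4, a receptor on leukocytes, was at 2.64, 4.38, 3.52 and 1.95 CPM with vehicle and 2.03, 1.4 and 1.01 CPM with DTMB (-1.08 ± 0.39). Tnf was below 1 CPM in all 7 livers, at 0.274 to 0.647 CPM with vehicle and 0.185 to 0.61 CPM with DTMB. Its levels overlapped. Il1b was at 0.235, 1.36, 0.884 and 0.857 CPM with vehicle and 1.31, 0.79 and 0.788 CPM with DTMB, and Osmr, the receptor subunit for oncostatin M, at 3.85, 5.65, 3.39 and 3.82 CPM with vehicle and 2.35, 2.27 and 2.26 CPM with DTMB (-0.87 ± 0.23) without overlap. The cytokine and inflammasome list had its median at 0.014, at 0.11 without vehicle replicate 2 and at -0.099 with library size alone.

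Interferon-related lists turned on DTMB replicate 1. Interferon-stimulated genes had a median log2 difference of 0.12 with 25 of 34 above 0, of 0.26 without vehicle replicate 2 and of -0.38 without DTMB replicate 1. Their median deviation from the vehicle mean, in log2(CPM + 0.5), was 0.69 in DTMB replicate 1 and -0.38 and -0.29 in replicates 2 and 3. For interferon-gamma GTPases and their companions the median was 0.25, 0.21 without vehicle replicate 2 and -0.049 without DTMB replicate 1. For MHC class I genes these were 0.12, 0.11 and -0.063. Isg15, a ubiquitin-like interferon effector, was at 9.23, 10.3, 12.7 and 9.77 CPM with vehicle and 23.5, 6.83 and 10.2 CPM with DTMB, and Cxcl9, an interferon-gamma target, was at 20.8, 9.81, 12.1 and 8.56 CPM with vehicle and 29.8, 11.1 and 22.5 CPM with DTMB. Psme2, a subunit of the proteasome activator used in antigen processing, was at 44.6, 39.8, 41.7 and 45.9 CPM with vehicle and 50.9, 47.9 and 56 CPM with DTMB (0.26 ± 0.094), without overlap.

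Stellate cell markers were below 0 in 15 of 16, with a median log2 difference of -0.42 (-0.29 without vehicle replicate 2). All 3 DTMB livers lay below all 4 vehicle livers for 7 of the 16 members, against 3.27% of all genes. The list's median deviation was -0.19, 0.35, -0.15 and -0.069 in the vehicle livers and -0.34, -0.39 and -0.43 in the DTMB livers, so here all DTMB livers were below. Their summed level was 537 to 789 CPM with vehicle and 506 to 524 CPM with DTMB. Pdgfrb, the growth factor receptor of these cells, was at 11.4, 17.5, 11.3 and 11.6 CPM with vehicle and 9.24, 7.04 and 6.12 CPM with DTMB (-0.79 ± 0.29; -0.61 without vehicle replicate 2). Pdgfra was at 17.6, 20.3, 13.9 and 13.5 CPM with vehicle and 12.2, 11.5 and 10.1 CPM with DTMB (-0.53 ± 0.20), against 2.89 to 5.47 CPM on normal diet. Lrat, which stores vitamin A in quiescent stellate cells, was at 27.8, 55.9, 37.2 and 48.4 CPM with vehicle and 32.6, 35.3 and 35.2 CPM with DTMB (-0.30 ± 0.23). The DTMB values of Lrat lay inside the vehicle range, unlike those of both PDGF receptors. Acta2, the smooth muscle actin of activated ones, was at 4.06, 5.92, 5.59 and 1.87 CPM with vehicle and 1.81, 2.93 and 1.95 CPM with DTMB (-0.97 ± 0.54).

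Endothelial markers were below 0 in all 17 (median -0.32, -0.23 without vehicle replicate 2), with 5 of 17 not overlapping, against 3.27% of all genes. Stab1, a scavenger receptor of sinusoidal endothelium, was at 19.8, 32.3, 24.1 and 24 CPM with vehicle and 17.6, 19.2 and 13.9 CPM with DTMB (-0.57 ± 0.17). Eng, a co-receptor for TGF-beta family ligands, was at 49.1, 53.1, 45.7 and 45.2 CPM with vehicle and 37.4, 41.2 and 31.9 CPM with DTMB (-0.39 ± 0.13), and Pecam1 at 13.7, 16.4, 13.4 and 16.6 CPM with vehicle and 12.6, 13.2 and 9.88 CPM with DTMB (-0.33 ± 0.14). The summed list was 352 to 425 CPM with vehicle and 271 to 347 CPM with DTMB. The list's median deviation was -0.050, 0.13, -0.032 and 0.0048 in the vehicle livers and -0.25, -0.038 and -0.52 in the DTMB livers. By that measure DTMB replicate 2 lay within the vehicle range. Bile duct markers had a median of -0.66, which became -0.14 without vehicle replicate 2, and Krt19, a duct keratin, was at 0.627, 2.07, 1.03 and 0.904 CPM with vehicle and 0.296, 0.717 and 0.503 CPM with DTMB.

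Matrix genes lay on the same side of 0 as stellate markers, and their median also depended on 1 library. Collagens and other matrix genes were below 0 in 34 of 38 (median -0.61), and the median was -0.33 without vehicle replicate 2. The list's median deviation was -0.36, 0.57, 0.0033 and -0.28 in the vehicle livers and -0.18, -0.55 and -0.76 in the DTMB livers. DTMB replicate 1 thus lay within the vehicle range. The fibrillar collagens had wide spreads. Col1a1 was at 20.2, 2.37, 5 and 6.09 CPM on normal diet, 10.3, 30.9, 15.8 and 9.49 CPM with vehicle and 13, 6.96 and 3.99 CPM with DTMB, a log2 difference of -1.06 ± 0.66 (-2.5 to 0.38). Col3a1 was at 23.7, 105, 51.2 and 28.4 CPM with vehicle and 42.6, 25.2 and 16.1 CPM with DTMB (-0.90 ± 0.62; -0.30 without vehicle replicate 2). Col4a2, a basement membrane collagen, had less spread, at 37, 52.9, 41.4 and 38.3 CPM with vehicle and 32.8, 30.7 and 22.2 CPM with DTMB (-0.57 ± 0.21), with no overlap.

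Matrix proteases and crosslinkers were below 0 in 25 of 28 (median -0.61, -0.35 without vehicle replicate 2). Timp2, an inhibitor of matrix metalloproteases, was at 15.2, 26.4, 18.3 and 15.4 CPM with vehicle and 10.1, 11.3 and 9.11 CPM with DTMB (-0.89 ± 0.24). Plau, the urokinase that activates plasmin, was at 2.82, 5.44, 5.63 and 3.93 CPM with vehicle and 2.68, 1.68 and 1.41 CPM with DTMB (-1.21 ± 0.38), and Adam8, a protease of myeloid cells, at 8.84, 22.4, 11.5 and 9.49 CPM with vehicle and 8.26, 3.25 and 1.9 CPM with DTMB (-1.55 ± 0.54). Of the 28 list members, 3 were lower without overlap, against 3.27% of all genes. Timp2, Plau and Adam8 did not overlap between the groups. Timp1, a common readout of fibrosis, did, at 0.848, 2.29, 1 and 1.06 CPM with vehicle and 1.79, 0.805 and 0.285 CPM with DTMB (-0.44 ± 0.83).

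Within TGF-beta signalling the ligands and an inhibitor lay on opposite sides of 0. Tgfb1 was at 6.49, 10.8, 8.35 and 8.28 CPM with vehicle and 7.06, 5.79 and 4.8 CPM with DTMB (-0.53 ± 0.19), and Tgfb3 at 1.49, 2.85, 1.83 and 1.25 CPM with vehicle and 0.591, 0.834 and 0.923 CPM with DTMB (-1.24 ± 0.36). Smad3, a mediator of the signal, was at 13.6, 11, 12.9 and 14.7 CPM with vehicle and 9.42, 8.51 and 10.7 CPM with DTMB (-0.45 ± 0.18). Smad7, which blocks the receptor, was at 3.97, 5.55, 4.28 and 7.45 CPM with vehicle and 9.05, 14 and 7.85 CPM with DTMB (0.96 ± 0.29, 0.33 to 1.59). Smad3, Smad7 and Tgfb3 did not overlap between the groups, while Tgfb1 and the related inhibitor Smad6 (-0.093 ± 0.30) did. The list as a whole was below 0 in 20 of 27 (median -0.29, -0.19 without vehicle replicate 2).

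**Figure D4:**
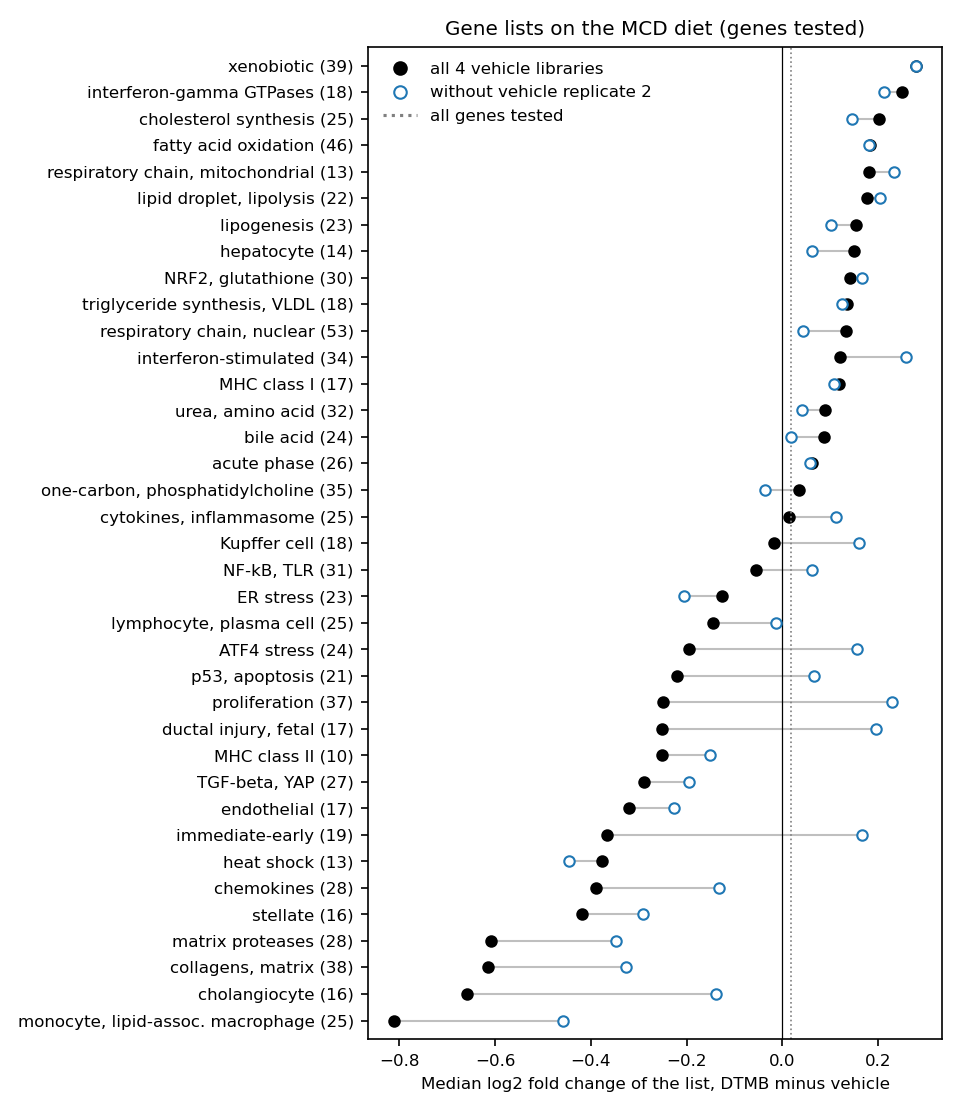
Median log2 fold change of DTMB against vehicle (x) for 37 of the gene lists (y, with the number of genes tested), filled circles with all 4 vehicle libraries and open circles without vehicle replicate 2, dotted line at the median of all genes tested (0.017). The macrophage list moves from -0.81 to -0.46 without that library, and the immediate-early, proliferation and p53 lists pass from below to above 0.

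Some lists changed sign with vehicle replicate 2 left out, and no direction is given for them. The immediate-early median was -0.37 with that library and 0.17 without it, proliferation -0.25 and 0.23, p53 and apoptosis -0.22 and 0.067, and ATF4 stress genes -0.19 and 0.16. Egr1, an immediate-early transcription factor, was at 16.4, 85.7, 9.28 and 11.8 CPM with vehicle and 41.3, 20.2 and 10.3 CPM with DTMB. Fosl2, an AP-1 subunit, was at 8.47, 41.7, 8.91 and 13.6 CPM with vehicle and 9.33, 8.37 and 6.46 CPM with DTMB. Mki67, a marker of dividing cells, was at 1.95, 17.9, 6.07 and 2.28 CPM with vehicle and 7.54, 3.66 and 1.34 CPM with DTMB, and Cdkn1a, the p53 target that halts the cell cycle, at 6.38, 22, 6.6 and 5.84 CPM with vehicle and 11.3, 7.62 and 7.92 CPM with DTMB. In all 4 genes vehicle replicate 2 was the highest of the 7 livers.

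Heat shock genes kept their side. All but 1 of 13 were below 0 (median -0.38, -0.45 without vehicle replicate 2 and -0.54 to -0.22 over the settings run), 6 of them lower at an unadjusted p under 0.05 and 5 without overlap (3.34% and 3.27% of all genes). Hspa1b, an inducible Hsp70, was at 10.3, 10.2, 14.1 and 23.1 CPM on normal diet, 85.1, 30.2, 61.3 and 35.8 CPM with vehicle and 9.88, 24.4 and 26.2 CPM with DTMB (-1.4 ± 0.43, -2.34 to -0.45). Its near-identical copy Hspa1a was at 36.7, 13.9, 24.1 and 14.1 CPM with vehicle and 4.53, 10.2 and 10.9 CPM with DTMB (-1.38 ± 0.46), and reads may have been split between the copies. Both lay without overlap. Hspb1, the list's member of smallest p, was at 24, 13.8, 20.9 and 19 CPM on normal diet, above all 7 MCD livers. Hsph1, a co-chaperone of Hsp70, was at 74.9, 83.1, 111 and 154 CPM with vehicle and 35.2, 69.5 and 62 CPM with DTMB (-0.93 ± 0.28), and Cryab, a small heat shock protein, at 3.15, 3.65, 2.35 and 3.23 CPM with vehicle and 2.31, 1.71 and 1.83 CPM with DTMB (-0.67 ± 0.19). The highest values lay in different vehicle livers for different members. These genes also respond to how tissue is collected, and the part of collection was not tested.

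Hepatocyte functions lay slightly above 0. The nuclear-encoded respiratory chain had all 53 genes above 0 with a median of only 0.13, none without overlap and none at an unadjusted p under 0.05. Without vehicle replicate 2 the median was 0.043 and 12 were below 0. The 13 mitochondrially encoded genes were also all above 0 (median 0.18, 0.23 without vehicle replicate 2), 5 of them higher without overlap, against 2.59% of all genes. ND6, a subunit of complex I and the member of smallest p, was at 109, 153, 106 and 124 CPM with vehicle and 179, 155 and 162 CPM with DTMB (0.42 ± 0.14). The 13 values ranged from 0.096 to 0.42. Hnf4a, the transcription factor of hepatocyte identity, had a log2 difference of 0.048 ± 0.15 (-0.27 to 0.37), and Alb of 0.16 ± 0.21 (-0.30 to 0.62).

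Xenobiotic metabolism, the handling of drugs and other foreign compounds, had a list median of 0.28 over 39 genes, with 33 above 0 and the same median without vehicle replicate 2. Without DTMB replicate 1 the median was 0.44 and without DTMB replicate 3 it was 0.17. Of its members 4 were higher and 1 lower at an unadjusted p under 0.05, against 2.01% and 3.34% of all genes. The lower one was Cyp1b1, a P450 enzyme that is not typical of hepatocytes, at 1.83, 4.05, 2.03 and 1.4 CPM with vehicle and 0.831, 0.922 and 0.923 CPM with DTMB (-1.38 ± 0.47). Nr1i2, the pregnane X receptor that senses foreign compounds, was at 58.9, 61.3, 37.7 and 34.8 CPM with vehicle and 62.4, 72.8 and 64.5 CPM with DTMB (0.47 ± 0.19), without overlap. Cyp3a11, a classical target of it, was at 2046, 2666, 2342 and 2793 CPM with vehicle and 2673, 3337 and 3286 CPM with DTMB (0.33 ± 0.35, -0.42 to 1.09), Cyp3a25 at 238, 239, 292 and 349 CPM with vehicle and 355, 359.9 and 432 CPM with DTMB (0.45 ± 0.19) without overlap, and Cyp2b10, the target of the related receptor CAR, at 10.6, 19.9, 16.5 and 14 CPM with vehicle and 13.8, 10.4 and 33.9 CPM with DTMB (0.34 ± 0.53). Single members of the Cyp2b, Cyp2c and Cyp3a families share sequence, so their levels are uncertain.

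Among signalling and glucose genes, single values stood out rather than lists. Axin2, a direct Wnt target, was at 5.96, 4.07, 7.76 and 8.78 CPM with vehicle and 11.5, 16.7 and 11.5 CPM with DTMB (0.99 ± 0.27, 0.40 to 1.59), without overlap, while Glul and Lgr5, other Wnt-dependent genes around the central vein, had log2 differences of 0.12 ± 0.27 and -0.35 ± 0.24. Irs2, the main insulin receptor substrate of fasted liver, was at 62.3, 109, 36.9 and 37.3 CPM with vehicle and 23.6, 21.5 and 18.7 CPM with DTMB (-1.53 ± 0.47; -1.1 without vehicle replicate 2). Irs2 did not overlap between the groups. G6pc, the last enzyme of glucose output, was at 115, 381, 158 and 306 CPM with vehicle and 109, 104 and 158 CPM with DTMB (-0.95 ± 0.38), and Pck1 at 2368, 2959.8, 2106 and 3161 CPM with vehicle and 3191, 1444 and 1470.3 CPM with DTMB (-0.38 ± 0.28). Hk1, a hexokinase of non-hepatocytes, was at 4.33, 6.18, 4.58 and 4.6 CPM with vehicle and 3.07, 3.22 and 2.43 CPM with DTMB (-0.76 ± 0.19), without overlap. The glucose list's median was 0.019, -0.017 without vehicle replicate 2 and -0.068 with library size alone.

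Among other liver programmes, genes with a female bias in mouse liver had the highest median of the 56 lists, 0.39 (0.34 without vehicle replicate 2), with 18 of 21 above 0. It was 0.073 without DTMB replicate 3 and at most 0.43 over the settings run, and Acot4 was again its member of smallest p. NRF2 and glutathione genes were above 0 in 24 of 30 (median 0.14, 0.17 without vehicle replicate 2), led by Akr1c19, an aldo-keto reductase, at 41.1, 33.9, 34.9 and 39.7 CPM with vehicle and 39.9, 59.6 and 78.3 CPM with DTMB (0.67 ± 0.20). DTMB replicate 1 lay among the vehicle livers. Fas, the death receptor, was at 9.14, 8.47, 8.1 and 8.82 CPM with vehicle and 12.4, 12.4 and 10.5 CPM with DTMB (0.45 ± 0.11), without overlap. Bhlhe40, a repressor in the circadian clock, was at 58.2, 91.1, 70.2 and 115 CPM with vehicle and 138, 130.3 and 141 CPM with DTMB (0.71 ± 0.30), also without overlap. The clock list's median was 0.089, 0.053 without vehicle replicate 2 and -0.0031 with library size alone.

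BMP signalling sets the liver's output of the iron hormone hepcidin. Id1, a direct BMP target, was at 3.03, 2.39, 6.89 and 2.05 CPM on normal diet, 6.55, 13.8, 9.68 and 17.6 CPM with vehicle and 34.8, 39.4 and 17.2 CPM with DTMB (1.36 ± 0.43, 0.43 to 2.29). Only DTMB replicate 3 fell within the vehicle range. Hamp, which encodes hepcidin, was at 185, 498, 453 and 659 CPM with vehicle and 447, 767 and 219 CPM with DTMB (0.090 ± 0.55), with overlap. Lymphocyte and plasma cell genes lay on both sides of 0, with 9 of 25 above it. Jchain, of antibody-secreting cells, was at 1.23, 1.7, 1.03 and 0.639 CPM with vehicle and 0.72, 0.468 and 0.117 CPM with DTMB.

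Whether DTMB acted differently on the MCD diet and on HFD was tested on the difference itself, in a fit of all 22 libraries. The HFD comparison has 4 DTMB and 4 vehicle livers of its own, from male wild-type C57BL/6J mice with a fatty liver disease label (MASLD) and the same dose, so the comparisons share no library. Diet and cohort cannot be told apart in it. In edgeR's quasi-likelihood test 0 of 16541 genes passed for the difference, the smallest adjusted p was 0.137, and 1415 (8.55%) had an unadjusted p under 0.05. DESeq2 called 38 genes. CPM values in this comparison are scaled over all 22 libraries and so differ slightly from those above. In the same fit DTMB on HFD gave 281 genes that rose (1.7%) and 261 that fell (1.58%). The HFD livers differed from one another in admixed pancreas: acinar genes summed to 536 and 3529 CPM in vehicle replicates 1 and 4 and to 2319 CPM in DTMB replicate 3, against 8.62 to 23.7 CPM in the other 5 HFD livers. Erythrocyte genes also lay apart, with a median log2 fold change of -0.47 on the MCD diet and 0.80 on HFD. Of 8 tested, 4 differed at an unadjusted p under 0.05 in edgeR's test, all lower on the MCD diet, against 8.55% of all genes. The count was 4 in each of 21 other settings, with a median difference of -1.52 to -0.77. The part of pancreas and blood in the difference was not tested.

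The 6 named genes of smallest p for the difference had adjusted p of 0.137 to 0.150 in edgeR's quasi-likelihood test. Limk1, a kinase that controls actin through cofilin, was at 3.5, 4.16, 3.87 and 2.83 CPM with MCD vehicle and 4.23, 3.23 and 4.01 CPM with MCD DTMB. On HFD it was at 3.52, 3.04, 4.1 and 5.18 CPM with vehicle and 1.87, 1.32, 1.69 and 1.26 CPM with DTMB, so the groups separated on HFD and overlapped on the MCD diet. The difference of log2 fold changes was 1.46 ± 0.26 (SE). For Efna1 the log2 fold change was -1.22 ± 0.25 on the MCD diet and 0.56 ± 0.23 on HFD, a difference of -1.78 ± 0.34. Sytl4, a regulator of vesicle release, differed by 1.35 ± 0.27, and Siae, a sialic acid esterase, by 0.64 ± 0.12. Zkscan14, a zinc finger protein, differed by -1.06 ± 0.19, and Impdh2, of guanine nucleotide synthesis, by -0.56 ± 0.11.

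Interferon-gamma GTPases and their companions had the largest gap between the diets among the lists in the plot of both cohorts. Their median log2 fold change was 0.24 on the MCD diet and -1.07 on HFD. At an unadjusted p under 0.05, 12 of 18 differed, all higher on the MCD diet, against 8.55% of all genes in either direction. Without DTMB replicate 1 of the MCD diet 7 of 18 did, and the median difference was 0.91 to 1.56 over 21 other settings, against 1.32. Cxcl9 was at 20.1, 9.49, 11.5 and 8.23 CPM with vehicle and 28.2, 10.5 and 21.9 CPM with DTMB on the MCD diet, and at 70.3, 37.6, 14.5 and 34 CPM with vehicle and 27.3, 6.87, 15.1 and 9.96 CPM with DTMB on HFD. On HFD 4 of the 18 fell in edgeR's test, against 1.58% of all genes. None passed on the MCD diet, where only 1 of 16037 genes did in the 11-library fit.

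Endoplasmic reticulum (ER) stress genes lay the other way. Their median was -0.13 on the MCD diet and 0.40 on HFD. At an unadjusted p under 0.05, 13 of 23 differed, all lower on the MCD diet, against 8.55% of all genes in either direction. The count was 9 to 16 over the other settings. Sdf2l1, an ER chaperone cofactor, was at 6.85, 9.57, 9.86 and 20.0 CPM with vehicle and 6.79, 5.85 and 6.24 CPM with DTMB on the MCD diet, and at 23.7, 18.1, 13.4 and 14.5 CPM with vehicle and 32.5, 31.2, 45.4 and 29.5 CPM with DTMB on HFD. Vehicle replicate 4 was the highest MCD liver, and without it the MCD median of the list was 0.0081 in the 11-library fit.

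Lipogenic genes had medians of 0.14 on the MCD diet and -0.25 on HFD. Of 23 members, 6 differed at an unadjusted p under 0.05, against 8.55% of all genes. When HFD vehicle replicate 3 was left out, 3 did. Fads2 was at 455, 431, 619 and 474 CPM with vehicle and 528, 521, 417 and 523 CPM with DTMB on HFD, far below its MCD level in both groups. Its log2 fold change was 0.44 ± 0.12 on the MCD diet and 0.0065 ± 0.11 on HFD. For NRF2 and glutathione genes 8 of 30 differed at that p (6 to 10 over the other settings). For MHC class I genes 5 of 17 did (2 to 6). In both lists these were all higher on the MCD diet. The cell type and matrix lists are given beside these. The medians on the MCD diet and on HFD were -0.82 and -1.01 for lipid-associated macrophage genes, -0.63 and -0.73 for matrix genes, and -0.33 and -0.32 for endothelial genes. They were -0.43 and -0.17 for stellate markers, -0.028 and -0.52 for Kupffer cell markers, and -0.67 and -0.092 for bile duct markers. In the macrophage, matrix and endothelial lists 3 of 25, 2 of 38 and 0 of 17 differed at an unadjusted p under 0.05, and in the stellate, Kupffer cell and bile duct lists 0 of 16, 1 of 18 and 1 of 16, against 8.55% of all genes.

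**Figure D5:**
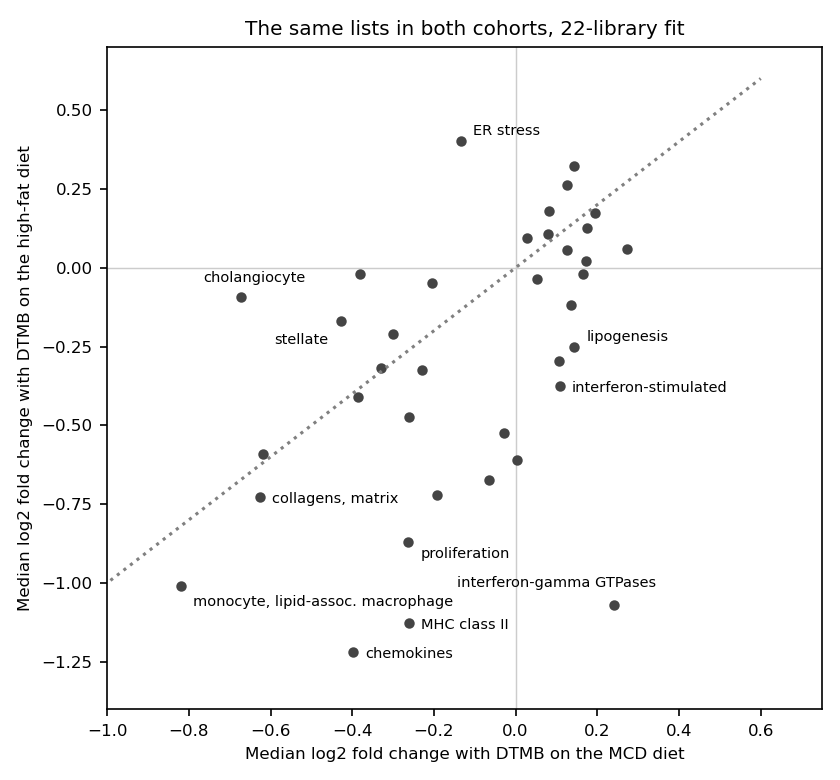
Median log2 fold change with DTMB on the MCD diet (x) and on HFD (y) for 37 gene lists in the 22-library fit, 1 point per list, dotted line where both are equal. Interferon-gamma GTPases lie furthest below the line (0.24 and -1.07). Bile duct markers (-0.67 and -0.092) and ER stress genes (-0.13 and 0.40) lie above it, while macrophage and matrix genes are below 0 on both diets.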

How the data were processed

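Per the labels' protocols, RNA was isolated from liver (RIN above 7.0), and polyA libraries were made with a stranded mRNA kit. The authors deposited raw read counts per gene, with no normalization. The submitters' processing notes name the mm10 build, HISAT2 2.1.0 and StringTie 2.1.3b, with FastQC 0.11.7 and Trimmomatic 0.38. The sources used here give neither their settings nor their order. The table lists 45777 genes, and 45679 IDs matched the RefSeq table of GRCm38.p6.

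Counts were fitted with edgeR 4.0.16 in R 4.3.3 on 11 libraries in 3 groups (filterByExpr, TMM factors, quasi-likelihood F test), which left 16037 genes. Adjusted p-values are Benjamini-Hochberg values over these genes, with a threshold of 0.05. SEs come from the coefficient and its F statistic. The difference between diets was fitted on 22 libraries. The procedure was tested on simulated data. Alternatives used DESeq2 1.42.0 and limma 3.58.1, other scalings and filters, and each library left out. Figures were drawn with matplotlib 3.10.9.

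Named genes were the 12 of smallest p, the 6 of smallest p for the difference, and 1 of smallest p per list. The others were chosen for their role after their values were seen. A few genes these rules name are not reported here. The members and the 56 gene lists were chosen with earlier results of these data known. List counts use the same 16037 genes as background. No pair within the MCD vehicle group or within the MCD DTMB group was a duplicate: the lowest chi-square per degree of freedom was 56.7. Other pairs were not checked.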

Additional observations from a re-analysis of the deposited data

Results flagged for a closer look

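In the 4 vehicle livers, 186 quantities (named genes and list sums) were checked for a library far from the other 3, meaning that its gap to the nearest was a share of the whole range above Dixon's 95% critical value. This was so for 25. For a single group of 4 values the critical value is passed by chance in about 1 in 20. The quantities here share genes, and some genes were chosen after their values were seen. The count of 25 therefore cannot be set against that rate. Vehicle replicate 2 stood out for 13 quantities, replicate 4 for 8, replicate 1 for 3 and replicate 3 for 1. The groups of 3 DTMB livers are too small for this check.

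Vehicle replicate 2 was high for Pdgfrb (17.5 CPM, others 11.3 to 11.6), Fosl2 (41.7 CPM, others 8.47 to 13.6) and the fetal growth factor Igf2 (1.69 CPM, others 0.170 to 0.396). It was high for Pdk4 (309.8 CPM, others 17.9 to 27.6), Egr1 (85.7 CPM, others 9.28 to 16.4) and Cdkn1a (21.9 CPM, others 5.84 to 6.6), and for the macrophage-expressed genes Fabp5 (39.4 CPM, others 20.6 to 23.8) and Trem2 (18.5 CPM, others 8.18 to 9.95). Hk1 (6.18 CPM, others 4.33 to 4.6) and Timp1 (2.29 CPM, others 0.848 to 1.06) were high in it too. Its summed level was also high for cytokines and the inflammasome (608.1 CPM, others 403.1 to 424.9), for TGF-beta and YAP genes (575.9 CPM, others 465.7 to 482.4) and for p53 and apoptosis genes (550.3 CPM, others 246.8 to 257.7).

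Vehicle replicate 4 was high in hepatocyte genes. The defining markers summed to 140000 CPM (others 98980 to 102700), secreted hepatocyte proteins to 150800 CPM (others 105600 to 109700) and urea and amino acid genes to 34160 CPM (others 25590 to 26920). It was high for Pemt (303.9 CPM, others 211.1 to 225.1), for Sar1b, which drives export of large lipid particles from the ER (134.6 CPM, others 94.1 to 99.6), for Alb (82400 CPM, others 55510 to 59990) and for Hnf4a (630.5 CPM, others 422.1 to 456.1), and low for Zfand4 (3.74 CPM, others 5.78 to 6.06).

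Vehicle replicate 1 was low for Epha2 (8.38 CPM, others 14.5 to 15.6), and high for the pancreatic enzyme Ctrb1 (2.81 CPM, others 0 to 0.0468) and for summed sterol efflux genes (1343 CPM, others 1038 to 1053). Vehicle replicate 3 was high for summed lipogenic genes (5899 CPM, others 5098 to 5167).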

How the results depend on the processing

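The count of 1 gene changed by DTMB on the MCD diet was 1 with RLE factors, with library size alone and with a log2 fold change of at least 1. It was 0 with all 22 libraries in the fit, with limma-voom, without a count filter, with a stricter one and with the 7 MCD-diet libraries alone, and 13 with DESeq2. Leaving out each library in turn gave 0 to 0 calls over 11 settings, with 424 to 1372 genes at an unadjusted p under 0.05. The replicate number as a block gave 0 calls for DTMB on the MCD diet, with 822 genes at an unadjusted p under 0.05, and 0 for the difference between diets. Same-numbered vehicle and DTMB libraries correlated at -0.39, -0.071 and -0.057 in their deviations from the group means. Of the 3 DTMB libraries, 0 correlated best with the vehicle library of their own number. The sources used here do not say what a shared number means, and 3 pairs are too few to decide it. For the difference between diets DESeq2 called 38 genes, and leaving out each library gave 0 to 2, with 2 without MCD vehicle replicate 2, 1 without MCD DTMB replicate 3 and 1 without HFD DTMB replicate 2. Genes changed by the diet numbered 3054 with a log2 fold change of at least 1 and 5600 to 6550 with each library left out. Settings without a normal-diet or HFD library were chosen after seeing the data.

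Of the 71 results for genes named by the rule on smallest p, the calls and directions held in all settings but these: LOC108168464 lost its call in 16, DESeq2 gave 15 calls that edgeR did not, and Dhx58 turned to -0.045 without DTMB replicate 1 (up to 0.60 with another library left out, 0.39 with all). Of 66 further genes named for their role, 46 kept their sign over the settings and 20 did not, and DESeq2 called 2 of them, Arrdc3 and Trhde. Leaving out vehicle replicate 2 alone turned Pdk4 from -1.79 to 0.22, Cidec from -0.20 to 0.099 and Mki67 from -0.76 to 0.28. Egr1 (-1.01 to 0.94) and Cdkn1a (-0.41 to 0.51) turned without it and with limma-voom, which also turned Fasn (0.31 to -0.17). The other 14 ranged over 0 as follows: Ccl2 -0.31 to 0.31, Cd36 -0.079 to 0.13, Cpt1a -0.090 to 0.17, Cyp2b10 -0.33 to 0.64, Cyp7a1 -0.24 to 0.27, Gnmt -0.19 to 0.12, Hamp -0.43 to 0.44, Hnf4a -0.037 to 0.18, Il1b -0.11 to 0.55, Isg15 -0.30 to 0.68, Mat1a -0.079 to 0.15, Naif1 -0.15 to 0.072, Pnpla2 -0.14 to 0.36 and Scd1 -1.22 to 0.36. Of the 56 list medians, 31 kept their sign in all 20 settings and 25 changed it in at least 1. Depth was at least 50.1 M counts in each library, so for well expressed genes the spread between livers, more than counting, set the interval. For genes with a few counts counting error matters too. The 3 and 4 livers a group limit all calls, and the causes of the differences between settings were not tested.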
